A study of Homo sapiens with 4 samples.

Results

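The E2F transcription factor genes E2F1 to E2F8 and the pocket protein genes RBL1 and RBL2 were examined in MOLM-14, an established cell line from human acute myeloid leukemia. These 10 genes were chosen by symbol, out of 18377 genes on the array, with earlier results of these data known. Each was measured by 1 probe set that the platform annotation gives to that gene alone. Control samples received the solvent DMSO (2 arrays) and treated samples received DZNep at 2 µM (2 arrays), and all 4 samples were taken at 24 h. DZNep, 3-deazaneplanocin A, inhibits S-adenosylhomocysteine hydrolase and so hampers cellular methyltransferases. All samples were grown in RPMI1640 medium with fetal bovine serum, and no genotype or other agent is given for either group. The design covers a single line, dose and time. The labels call the samples biological replicates without naming separate cultures, so p-values measure the spread between these arrays, which may be technical.

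E2F factors bind the promoters of genes for DNA replication and cell cycle entry, most of them as a dimer with a DP protein. E2F1, E2F2 and E2F3 are the activators. E2F4 and E2F5 repress mainly while held by a pocket protein, E2F6 represses without one through Polycomb-related complexes, and the atypical E2F7 and E2F8 repress without a DP partner or a pocket protein. Pocket proteins mask the activating part of an E2F and bring in corepressors until cyclin-dependent kinases phosphorylate them. RBL1 and RBL2 bind chiefly E2F4 and E2F5, and join the MuvB proteins in the DREAM complex of resting cells. Several E2F genes and RBL1 are themselves E2F targets that rise as cells enter S phase.

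The promoters below show which of these genes carry E2F words close to their start. The RefSeq promoter table (GRCh38.p14) matched 8 of the 10 genes, all but E2F5 and E2F8. Each window of 300 bases, from 250 before to 50 after a start site, was searched on both strands for 4 words of 8 bases, TTTCCCGC, TTTCGCGC, TTTGCCGC and TTTGGCGC, and no matches overlapped. Each line gives the 120 bases that end just before the start site, 5′ to 3′ on the strand of the gene, with the matched words, or their reverse complements, in capitals.
E2F1: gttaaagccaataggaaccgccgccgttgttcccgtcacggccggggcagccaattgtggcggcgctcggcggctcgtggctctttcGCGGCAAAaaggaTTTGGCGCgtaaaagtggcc
E2F2: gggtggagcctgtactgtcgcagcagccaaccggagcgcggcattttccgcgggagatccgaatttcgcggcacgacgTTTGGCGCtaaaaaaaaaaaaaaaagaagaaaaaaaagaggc
E2F3: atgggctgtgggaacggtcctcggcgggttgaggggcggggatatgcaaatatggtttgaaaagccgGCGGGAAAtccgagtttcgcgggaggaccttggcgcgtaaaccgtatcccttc
RBL1: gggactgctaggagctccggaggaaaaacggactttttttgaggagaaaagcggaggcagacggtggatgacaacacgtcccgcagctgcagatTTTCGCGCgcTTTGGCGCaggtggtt
E2F7: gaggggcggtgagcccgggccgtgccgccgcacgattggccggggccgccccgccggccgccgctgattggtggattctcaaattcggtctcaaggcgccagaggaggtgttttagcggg

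The 5 stretches are E2F1 at chr20:33686386-33686505 on the minus strand, E2F2 at chr1:23531234-23531353 on the minus strand, E2F3 at chr6:20401759-20401878 on the plus strand, RBL1 at chr20:37095998-37096117 on the minus strand and E2F7 at chr12:77065570-77065689 on the minus strand. E2F1 and RBL1 held 2 words each, E2F2 held 1, and E2F3 held 1 at the first of its 2 listed starts. The word nearest to a start was in RBL1, from 16 to 9 bases upstream, and the farthest was in E2F3, from 53 to 46 bases upstream. No word was found in the windows of E2F4, E2F6, E2F7 or RBL2. Of all 35116 windows in the table, 3.31% held a word. A match describes letters only, and its absence says nothing about whether a factor binds there.

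The arrays were alike in overall level and carried markers of the labelled lineage. Array medians over all probe sets lay between 6.99 and 7.07 on the log2 scale, and the log2 values of all genes correlated at 0.993 between the DMSO arrays and 0.996 between the DZNep arrays (Pearson, across genes, which are not independent replicates). Of 8 myeloid markers, 7 were measured, with means from 6.80 (ANPEP) to 12.50 (LYZ), and 6 of them lay above 7.46, the median over genes. Of 8 markers of lymphoid, erythroid, epithelial, stromal and endothelial cells, 6 were measured, with means from 5.87 to 7.84 and 1 above that median (COL1A1). LYZ and CSF1R were higher and FLT3 was lower with DZNep (limma adjusted p of 0.0114, 0.0128 and 0.000535). Their part in the results below was not tested.

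With DZNep, the atypical repressors E2F7 and E2F8, the activator E2F3 and the pocket protein gene RBL1 fell, by 1.38-fold (E2F3) to 1.54-fold (E2F7). No member rose. The activators E2F1 and E2F2, the repressors E2F4, E2F5 and E2F6 and the pocket protein gene RBL2 did not pass the test. Thus 4 of 10 members were called lower, at a limma adjusted p under 0.05, where 6.68% of all genes were called lower and 3.62% higher (10.3% in either direction). Both DZNep arrays lay below both DMSO arrays for 7 of the 10 members (E2F2 by a negligible margin) and above them for 0, while over all genes 23.9% lay below and 25.9% above (49.7% in either direction). At an unadjusted limma p under 0.05, 5 members were lower and 0 higher, against 2343 lower and 1733 higher of all 18377 genes. These values over all genes are also the background for the counts of the gene lists below. Members and lists were chosen with earlier results of these data known. Setting their counts beside the shares of all genes is therefore a description only. The median log2 change was −0.30 over the members and 0.02 over all genes. Where 1 array is left out, here and below, the array left alone in its group is assumed to vary like the pair in the other group. The count of 4 was 2 without DZNep replicate 1, where E2F7 and RBL1 passed, and also 2 when 16, a constant near the floor of the deposited values, was subtracted before log2.

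**Figure D1:**
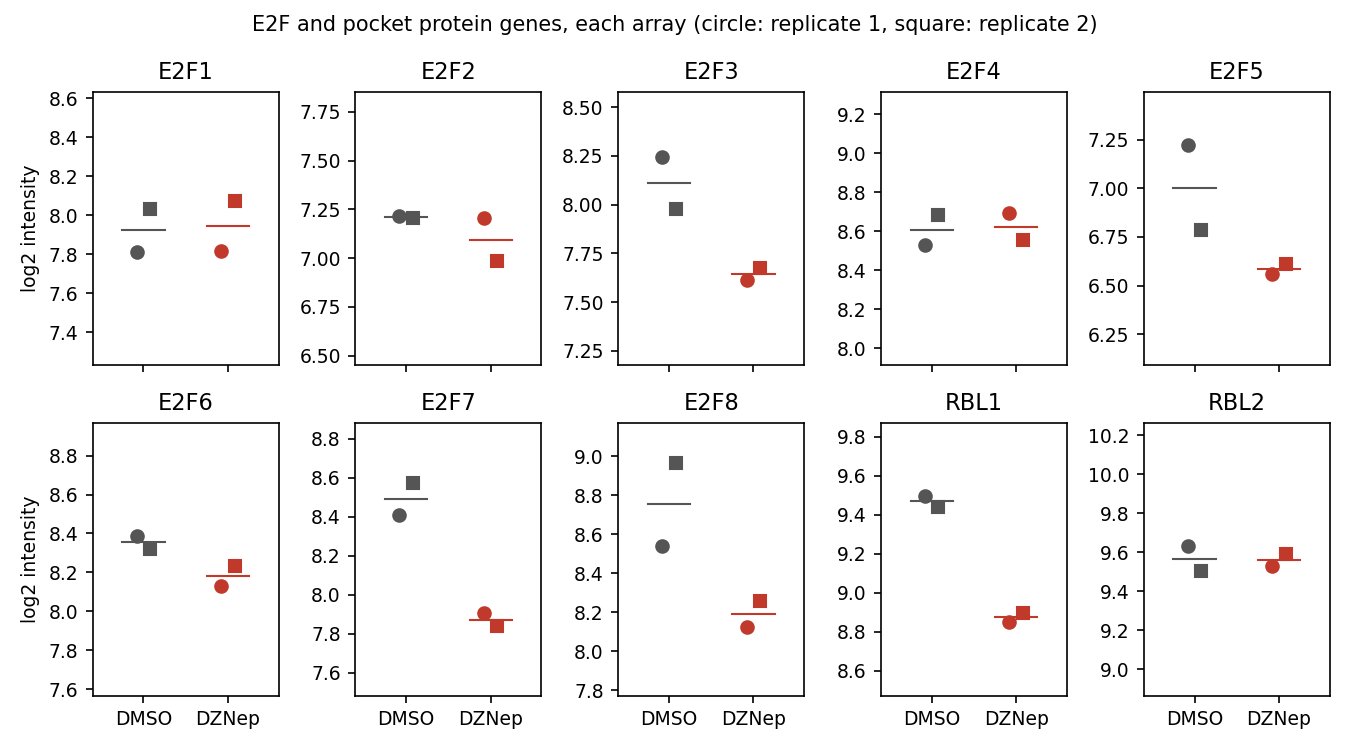
Log2 intensity (vertical axis, each panel spanning the same range of log2 units) of the 10 genes on the 2 DMSO arrays (grey) and the 2 DZNep arrays (red), with replicate 1 as a circle, replicate 2 as a square and the group mean as a line. The DZNep arrays lie clearly below the DMSO arrays for E2F7 and RBL1. They also lie below them for E2F3 and E2F8, where the DMSO arrays stand farther apart. The groups overlap for E2F1, E2F4 and RBL2.

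Among the activators, only E2F3 passed the test. E2F3 drives entry into S phase, and the GCGGGAAA match shown above lies near the first of its 2 listed starts. E2F3 had log2 intensities of 8.24 and 7.98 with DMSO and of 7.61 and 7.68 with DZNep. Both DZNep arrays lay below both DMSO arrays, and the DMSO arrays stood farther apart than the DZNep arrays. The mean went from 8.11 ± 0.19 to 7.65 ± 0.04 (SD, 2 arrays per group), a 1.38-fold fall (log2 change −0.47, SE 0.11, limma adjusted p = 0.03). This call ended without DMSO replicate 1 (−0.33, limma adjusted p = 0.0798), DZNep replicate 1 (−0.43, 0.125) or DZNep replicate 2 (−0.50, 0.0544), and when 16 was subtracted (−0.50, 0.0634). RefSeq lists 2 pseudogene copies of E2F3, E2F3P1 and E2F3P2, whose transcripts its probes might also bind.

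E2F1, the family's founding activator, which can also induce apoptosis genes, had log2 intensities of 7.81 and 8.03 with DMSO and 7.81 and 8.07 with DZNep. The 2 groups covered almost the same range. Its log2 fold change was 0.021, with a 95% interval of −0.25 to 0.29 (limma, adjusted p = 0.954), and its sign turned under median centring and without DMSO replicate 1 or DZNep replicate 2. E2F2, an activator with a large part in blood cells, had 7.21 and 7.20 with DMSO and 7.20 and 6.99 with DZNep. Its first DZNep array was level with the DMSO arrays, and only the other lay lower. Its log2 fold change was −0.11, with a 95% interval of −0.35 to 0.12 (limma, adjusted p = 0.625). The E2F2 means, 7.21 with DMSO and 7.10 with DZNep, lay below 7.46, the median over genes. Whether this signal exceeds background was not tested. E2F words lay within 53 bases of the starts of E2F1 and E2F2, which did not pass the test. They also lay within 53 bases of the first listed start of E2F3 and the start of RBL1, which both fell.

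E2F7 and E2F8, close paralogs that repress the activator E2F genes and other S phase genes, were among the 3 genes that fell most, with RBL1. E2F7 had log2 intensities of 8.41 and 8.57 with DMSO and 7.91 and 7.84 with DZNep. The groups were well apart, and replicates differed by far less than the groups. The mean went from 8.49 ± 0.12 to 7.87 ± 0.05 (SD, 2 arrays per group), a 1.54-fold fall (log2 change −0.62, SE 0.10, limma adjusted p = 0.00497). A lower log2 change than that of E2F7 was seen in 2.54% of all genes.

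E2F8 had log2 intensities of 8.54 and 8.97 with DMSO and 8.12 and 8.26 with DZNep. The groups did not overlap, but the DMSO arrays differed from each other by about as much as DMSO replicate 1 differed from DZNep replicate 1. The mean went from 8.75 ± 0.30 to 8.19 ± 0.10 (SD, 2 arrays per group), a 1.48-fold fall (log2 change −0.56, SE 0.14, limma adjusted p = 0.0334). Without DMSO replicate 2 the value was −0.35 and the call ended (limma adjusted p = 0.0722), as it did without DZNep replicate 1 (−0.49, 0.0573), under quantile (−0.54, 0.0565) or cyclic loess (−0.56, 0.0517) normalization and when 16 was subtracted (−0.59, 0.0746). The within-array difference between E2F7 and E2F8 changed by −0.06, less than its spread between replicates (SD 0.17).

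The other repressor genes did not pass the test. E2F4, the most abundant repressor in many resting cells and a DNA-binding subunit of DREAM, had log2 intensities of 8.53 and 8.68 with DMSO and 8.69 and 8.55 with DZNep. The groups overlapped, and the log2 fold change of 0.018 had a 95% interval of −0.22 to 0.25 (limma, adjusted p = 0.954). Its sign turned under median centring and without DMSO replicate 1 or DZNep replicate 1.

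E2F5, the nearest relative of E2F4, had 7.22 and 6.78 with DMSO and 6.56 and 6.61 with DZNep. Both DZNep arrays lay below both DMSO arrays, and DMSO replicate 2 lay close to the DZNep arrays. Its log2 fold change was −0.42, with a 95% interval of −0.73 to −0.11 (limma, adjusted p = 0.0973). Without DMSO replicate 2 it was −0.64 and passed (limma adjusted p = 0.00955), without DMSO replicate 1 it was −0.20 (0.25), and E2F5 also passed with the replicate number as a block (0.0181).

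E2F6, the pocket-independent repressor that silences germline genes in somatic cells, had 8.39 and 8.32 with DMSO and 8.13 and 8.23 with DZNep. The groups did not overlap, by a narrow margin. Its log2 fold change was −0.17, with a 95% interval of −0.39 to 0.04 (limma, adjusted p = 0.357). RefSeq lists pseudogene copies of E2F4 and E2F6 as well.

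The 2 pocket protein genes examined here parted. RBL1, which rises in cycling cells and has a pair of E2F words within 26 bases of its start, had log2 intensities of 9.50 and 9.44 with DMSO and 8.85 and 8.90 with DZNep. Replicates were close in both groups and the groups were far apart. The mean went from 9.47 ± 0.04 to 8.87 ± 0.03 (SD, 2 arrays per group), a 1.51-fold fall (log2 change −0.59, SE 0.09, limma adjusted p = 0.00421). RBL2, the pocket protein most abundant in resting and differentiated cells, had 9.63 and 9.50 with DMSO and 9.53 and 9.59 with DZNep. The DZNep arrays lay inside the range of the DMSO arrays. Its log2 fold change was −0.0066, with a 95% interval of −0.23 to 0.21 (limma, adjusted p = 0.979), and its sign turned under quantile and cyclic loess normalization and without DMSO replicate 1 or DZNep replicate 1.

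The within-array difference between RBL1 and RBL2, set to 0 at the DMSO mean, was −0.04 and 0.04 with DMSO and −0.58 and −0.59 with DZNep. Both DZNep arrays thus stood apart from both DMSO arrays by much more than the spread between replicates (SD 0.04). An exact permutation test with 2 arrays against 2 cannot give a two-sided p under 0.333. In RNA from whole cultures, fewer cells in a phase of the cell cycle and less RNA per cell cannot be told apart.

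**Figure D2:**
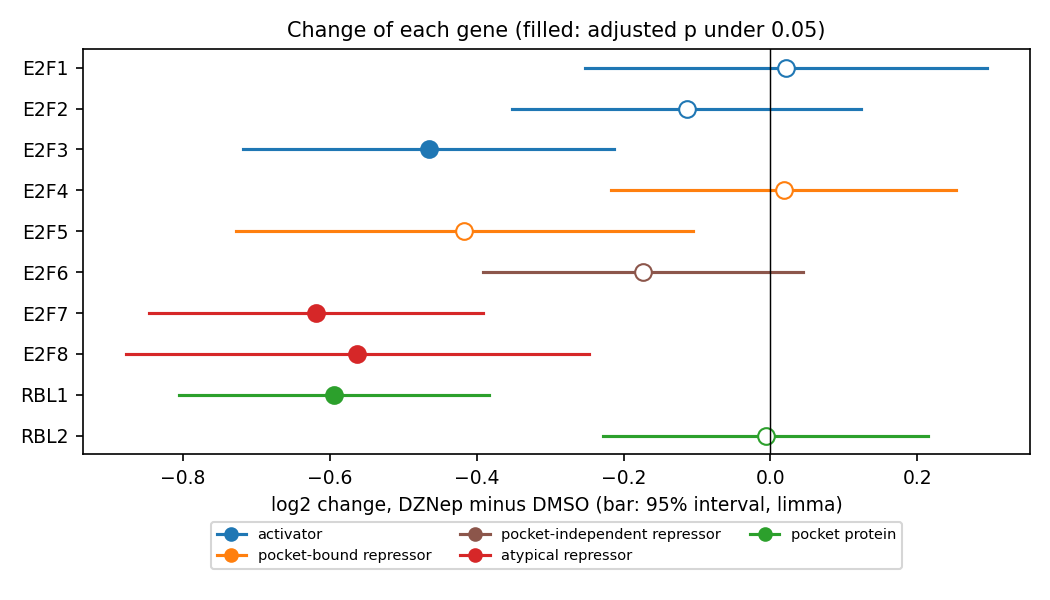
Log2 change with DZNep (horizontal axis, DZNep minus DMSO) of each gene, with its 95% interval from limma as a bar, coloured by role, and filled where the adjusted p is under 0.05. The filled points are E2F3, E2F7, E2F8 and RBL1, between −0.62 and −0.47, and the interval of E2F5 lies below 0 although its adjusted p missed the threshold.

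Activators and repressors overlapped in their changes. Of 3 activators, 1 fell, with log2 changes from −0.47 to 0.02 and a median of −0.11, and of 5 repressors, 2 fell, with changes from −0.62 to 0.02 and a median of −0.42. Averaged within each array and set against the DMSO mean, the activators stood at −0.20 and −0.17 on the DZNep arrays and the repressors at −0.36 and −0.34. The activator mean minus the repressor mean was 0.03 and −0.03 with DMSO and 0.16 and 0.17 with DZNep, a change of 0.16 (spread between replicates, SD 0.03). It was between 0.13 and 0.20 when 1 array was left out. This difference is a description of chosen genes and carries no test. It includes E2F2 and E2F5, whose means lay below the median over genes. Each class held genes near 0 (E2F1 and E2F4) and genes that fell. Among the repressors, the atypical E2F7 and E2F8 had a mean log2 change of −0.59. E2F4, E2F5 and E2F6 changed by 0.02, −0.42 and −0.17, against a mean of −0.19 for the activators. The difference between the classes thus came largely from the atypical pair.

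Close relatives were also compared within arrays, with each difference set to 0 at the DMSO mean. E2F3 changed by −0.49 against E2F1, with −0.39 and −0.58 after DZNep and 0.24 and −0.24 after DMSO. Against E2F2 it changed by −0.35, with −0.49 and −0.21 after DZNep and 0.13 and −0.13 after DMSO. E2F5 changed by −0.44 against E2F4, with −0.53 and −0.34 after DZNep and 0.30 and −0.30 after DMSO. For E2F3 against E2F1 the DMSO arrays differed from each other nearly as much as the groups did, and for E2F5 they differed by more. The spreads between replicates of these pair differences were SD 0.26, 0.19 and 0.31, in the order given. They are thus less firm than the difference of the pocket protein genes (SD 0.04).

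Partners of the E2F proteins fell in part. Of 9 genes for DP proteins, the MuvB core and its activators MYBL2 and FOXM1, 3 fell and 0 rose (limma; 7 and 0 at an unadjusted p under 0.05), and the median log2 change was −0.26. MYBL2, B-MYB, which turns MuvB into an activator of late cell cycle genes, had log2 intensities of 8.98 and 9.06 with DMSO and 8.21 and 8.32 with DZNep, a change of −0.76 (limma adjusted p = 0.00144). TFDP2, a DP partner, had 7.69 and 7.52 with DMSO and 6.77 and 7.05 with DZNep, a change of −0.69 (limma adjusted p = 0.00679). LIN9, a MuvB scaffold subunit, changed by −0.65 (limma adjusted p = 0.00257). These 3 genes were each lower on both DZNep arrays than on both DMSO arrays. The DZNep means of TFDP2 and LIN9, 6.91 and 7.02, lay below 7.46, the median over genes. TFDP1, the main DP partner, changed by −0.19 (limma adjusted p = 0.293) and FOXM1, a factor of the G2 and M phases, by −0.26 (limma adjusted p = 0.145). Neither passed the test.

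The genes of repressive partners were called about as often as all genes (6.68% lower, 10.3% in either direction). Of 9 measured genes of the E2F6 complex, 0 fell and 0 rose (limma; 2 and 1 at an unadjusted p under 0.05), with a median of 0.04. RYBP, a Polycomb subunit, changed by 0.37 (limma adjusted p = 0.124), which passed without DMSO replicate 1 (0.57, 0.0254) and with the replicate block (0.0423) but was 0.18 without DMSO replicate 2 (0.285). CBX3, a heterochromatin protein, changed by −0.27 (limma adjusted p = 0.129) and passed with an intensity trend (0.0352). In this list 1 gene was called lower with that trend and 1 without the dimmest 50% of genes. Of 10 measured corepressor genes of pocket proteins, 1 fell and 0 rose (limma; 2 and 1 at an unadjusted p under 0.05), with a median of −0.05. It was the histone deacetylase HDAC2, at −0.44 (limma adjusted p = 0.0195), and its call ended without DZNep replicate 1 (−0.47, 0.0811), DZNep replicate 2 (−0.41, 0.168) or DMSO replicate 1 (−0.39, 0.0515), and when 16 was subtracted (−0.45, 0.053).

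Upstream of the pocket proteins, several cyclin and kinase genes fell. Of 11 cyclin, kinase and phosphatase genes of G1 and S phase, 6 fell and 0 rose (limma; 8 and 0 at an unadjusted p under 0.05), with a median of −0.36. Over all genes, 6.68% were called lower. To complete the list, CDK4 (−0.40, limma adjusted p = 0.031) and CDK7 (−0.36, 0.047) were among the 6. CCND1 (−0.05), CCND2 (−0.30), CCND3 (−0.09), CDK2 (−0.18) and CDK6 (−0.24) did not pass the test. Whether the falls in this list are separate from those of the E2F targets below was not tested. The count of 6 was 2 without DMSO replicate 1 or DZNep replicate 1 and 3 without DZNep replicate 2 or when 16 was subtracted. CCNE2, a cyclin E that drives CDK2 at the start of S phase and an E2F target itself, had 8.24 and 8.34 with DMSO and 7.54 and 7.59 with DZNep, a change of −0.72 (limma adjusted p = 0.00174). CCNA2, the S phase cyclin that switches off activator E2Fs, changed by −0.55 (limma adjusted p = 0.0164). CDC25A, a CDK-activating phosphatase, changed by −0.46 (limma adjusted p = 0.0333), which no longer passed without DMSO replicate 1 (−0.35, 0.112) or DZNep replicate 1 (−0.37, 0.249), or when 16 was subtracted (−0.52, 0.0649). CCNE1, the other cyclin E, changed by −0.44 (limma adjusted p = 0.0227), which no longer passed without DZNep replicate 1 (−0.49, 0.0646), DZNep replicate 2 (−0.40, 0.179) or DMSO replicate 1 (−0.37, 0.0639).

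Of 6 measured CDK inhibitor genes, 0 fell and 0 rose (limma; 0 and 0 at an unadjusted p under 0.05), with a median of 0.06. CDKN1A changed by −0.29 (limma adjusted p = 0.299), which was −0.52 and passed without DMSO replicate 2 (0.0335) but was −0.066 without DMSO replicate 1 (0.8) and −0.19 without DZNep replicate 1 (0.799). CDKN1C changed by 0.17 (limma adjusted p = 0.44), with 0.069 to 0.26 when 1 array was left out: 0.069 without DMSO replicate 1, 0.26 without DMSO replicate 2 and 0.10 without DZNep replicate 2. Of 5 ubiquitin ligase genes that act on E2F factors and their regulators, 1 fell and 0 rose (limma; 1 and 0 at an unadjusted p under 0.05). The count was 2 when a gene's probe sets were averaged. The gene that fell was FBXO5, an inhibitor of the anaphase-promoting complex and an E2F target, at −0.60 (limma adjusted p = 0.00626).

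Downstream, textbook E2F targets of the G1/S transition fell widely. Of 54 measured G1/S genes, 38 fell and 0 rose (limma; 46 and 0 at an unadjusted p under 0.05), and the median log2 change was −0.62, against 0.02 over all genes. The largest falls were in CDC6, an origin licensing factor, at −1.71, PRIM1, a primase subunit, at −1.34, CDC45, a helicase factor, at −1.31, and RRM2, a subunit of ribonucleotide reductase, at −1.17 (limma adjusted p from 2.66e-05 to 0.000177). PRIM1 had log2 intensities of 10.89 and 10.87 with DMSO and 9.51 and 9.57 with DZNep, so its groups were far apart. The 16 genes that did not pass included PCNA, the polymerase clamp, at −0.09 and FEN1, a flap nuclease, at 0.09, both named after their values were seen.

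Among 31 measured G2/M genes, whose promoters MuvB occupies, 12 fell and 0 rose (limma; 20 and 0 at an unadjusted p under 0.05), with a median of −0.33. The count was 7 without either DZNep array, without DMSO replicate 2, or when 16 was subtracted. HMMR, a spindle protein, changed by −0.91, BUB1, a checkpoint kinase, by −0.82, TTK, another checkpoint kinase, by −0.75 and CCNB2, a mitotic cyclin, by −0.72 (limma adjusted p from 0.00124 to 0.00735). Whether the G1/S and G2/M lists differ was not tested. Of 8 measured apoptosis genes that E2F1 can induce, 1 rose and 1 fell (limma; 2 and 2 at an unadjusted p under 0.05), with a median of 0.01. APAF1, the apoptosome scaffold, rose by 0.49 (limma adjusted p = 0.0148), which no longer passed without DZNep replicate 1 (0.46, 0.0854). PMAIP1, the BCL2 family member NOXA, changed by −0.48 (limma adjusted p = 0.028), which no longer passed without DMSO replicate 1 (−0.42, 0.0989) or DZNep replicate 2 (−0.35, 0.307), or when 16 was subtracted (−0.52, 0.0603).

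**Figure D3:**
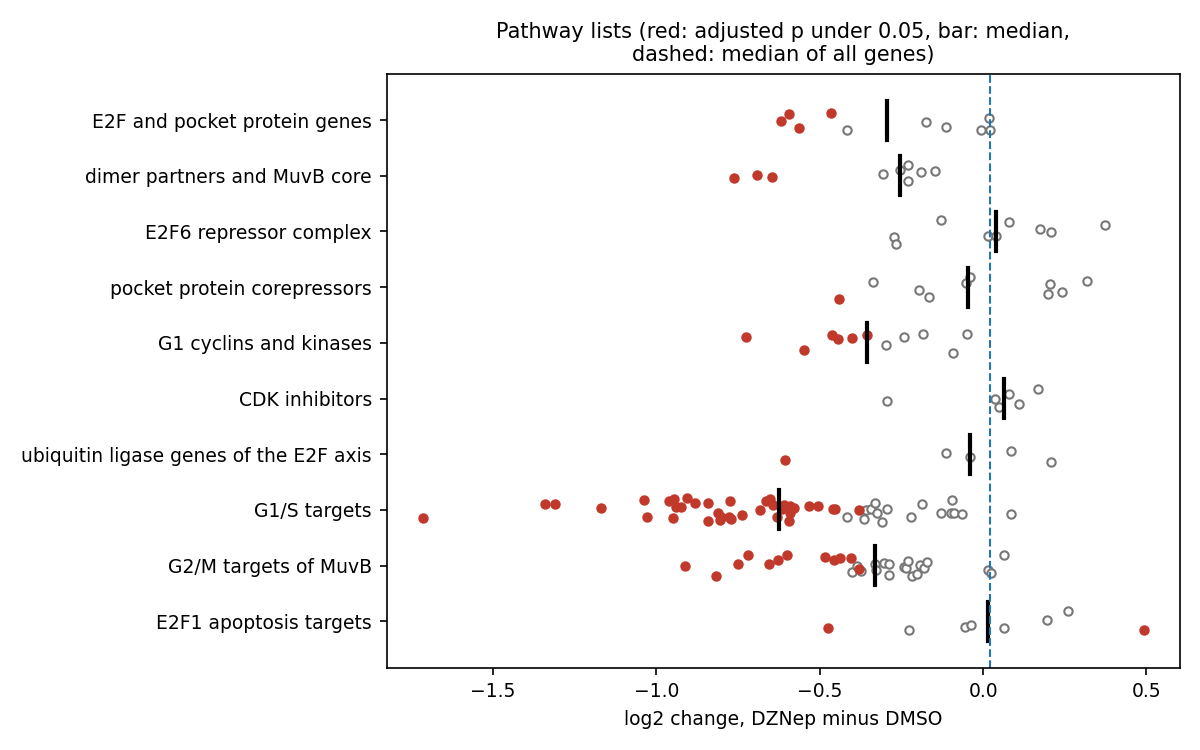
Log2 change with DZNep (horizontal axis) of each measured gene in the E2F and pocket protein set and in 9 pathway lists, with 1 point per gene, red where the adjusted p is under 0.05, a black bar at the median of the list and a dashed line at the median of all genes, 0.02. The G1/S targets reach farthest to the left, with a median of −0.62, while the CDK inhibitors have no red point.

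The promoter words shown above were also counted in these lists. Of 47 G1/S genes with a promoter in the table, 25 held a word in at least 1 window (53.2%), as did 4 of the 8 members (50%), 2 of 26 G2/M genes (7.69%) and 783 of 14210 array genes (5.51%). Among the genes for DP proteins and MuvB, 2 of 8 held a word (25%), and 0 of these 2 fell, against 3 of the other 6. Among the G1/S genes, 18 of 25 with a word fell (72%) and 15 of 22 without one (68.2%), while the median log2 change was −0.59 with a word and −0.71 without one. Over all array genes, 110 of 783 with a word fell (14%) and 873 of 13427 without one (6.5%). The words contain CG bases, which are common in CpG island promoters, and their part in these shares was not tested.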

How the data were processed

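The authors summarised the arrays with RMA, per the submitters' processing notes, and deposited an intensity for every probe set in linear units. The RMA version and software were not given in the sources used here. No deposited intensity was under 18.1, and an added constant, which would shrink folds of dim genes, cannot be told from these values. Intensities were converted to log2 here, with no pseudocount, further normalization or filter. Of 28869 probe sets, 19310 have 1 gene symbol, 1752 several and 7807 none in the platform annotation. Where several probe sets share a symbol, the one with the highest mean log2 stands for the gene, which gave 18377 genes.

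Groups and replicate numbers come from the sample titles. A limma fit with no term but the group (version 3.58.1, R 4.3.3, lmFit, then eBayes with no trend, two-sided, 2 residual and 7.18 prior degrees of freedom) covered all genes, with Benjamini-Hochberg adjustment over them and a threshold of 0.05. The script was tested on simulated data, with recovery required only for log2 changes of 2, larger than any change of a member. Only 2 arrays a group limit the precision. Genes named are the members, MYBL2, FOXM1, TFDP1 and TFDP2, and from each of 9 lists the called genes that changed most, at most 4, or at most 2 by size of change if no gene was called. The members and lists were chosen with earlier results of these data known, and no list was tested as a set.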

Additional observations from a re-analysis of the deposited data

How the results depend on the processing

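Calls of E2F7 and RBL1 held under all 15 alternatives tried (limma adjusted p from 7.79e-05 to 0.0172 and from 0.000168 to 0.0176), while those of E2F3 and E2F8 ended under 4 and 5 of them. In 4 of these alternatives 1 group holds a single array, and the spread then comes from the other group's 2 arrays and limma's pooling across genes. Averaging probe sets or testing every probe set could not change a member's value, since each member has 1 probe set. The blocks, the intensity trend and the filters on dim genes also left the log2 changes of members as they were. The crossed block among these alternatives was chosen after seeing the data. The values of E2F1, E2F4 and RBL2 changed sign, though none was called. Under median centring E2F1 was −0.0115 and E2F4 −0.0148, and for RBL2 quantile normalization gave 0.0545 and cyclic loess 0.0314. Leaving out 1 array gave −0.107 to 0.149 for E2F1, −0.0597 to 0.0952 for E2F4 and −0.0725 to 0.0592 for RBL2. With 16 subtracted from every intensity, 2 members and 7 G2/M targets were called lower. Leaving out 1 array gave 2 to 4 members, 7 to 16 G2/M targets and 734 to 1662 of all genes called lower, 336 to 776 of all genes called higher, and 0 to 2 listed genes called higher. That last count was 2 under quantile or cyclic loess normalization, with an intensity trend and without the dimmest 25% or 50% of genes. Why these values moved was not tested.

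The replicate numbers were not taken to pair the samples, since the labels state no pairing. Deviations of same-numbered arrays correlated at −0.219 across genes, which cannot show whether the samples were paired. With the replicate number as a block, 5 members, 65 listed genes and 1353 of all genes were called lower, and 754 of all genes and 2 listed genes higher. With the numbers crossed, chosen after seeing the data, 5 members were called lower, and 1034 of all genes and 3 listed genes higher. E2F2 and E2F5 were not tested without the dimmest 50% of genes, and E2F5 has the dimmest probe set of the members.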
